A study of Mus musculus with 13 samples.

Results

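The genes described here are 104 protein-coding genes that were expressed at a low level in control cells of the newborn mouse retina and were much lower in cells made to express Ikzf1. They were chosen by their values. Estimated read counts of transcripts were summed to genes and divided by the library's total without the reads of Ikzf1, which gave CPM, the reads of a gene per 1000000 reads of its library. A gene was kept when its control mean was from 1 to 20 CPM, when its mean over the 4 Ikzf1 libraries was at most 0.3 times the control mean, and when every Ikzf1 library lay below every control. Of 5149 protein-coding genes in that range of control levels, the 104 members made up 2.02%. Because the rule used the comparison of the Ikzf1 and control libraries, all values of members in that comparison are a description and carry no test.

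The study comprised 13 samples, of which the 8 RNA-seq libraries were used and the 5 CUT&RUN samples were not used here. Both RNA groups were cells of CD1 mouse retinas of postnatal day 0 (P0), dissociated, transfected, kept in culture for 9 h and sorted for green fluorescent protein (GFP). The 4 control libraries came from cells that received GFP, with 400000 cells in each replicate, and the 4 Ikzf1 libraries from cells that received Ikzf1, with 300000 cells in each. The labels call the replicates biological, and the promoter of the plasmids in this experiment was not given in the sources used here. The libraries held 21.4 to 30.5 M (1000000) estimated reads. Reads of Ikzf1 were 0.00723 to 0.0091% of a control library and 15.9, 17.1, 17.2 and 17.1% of the Ikzf1 libraries 1 to 4, which matches the labels, and reads of the transfected copy count toward that gene.

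The product of Ikzf1 is Ikaros, a zinc finger protein known from the development of blood cells, where it binds DNA at sites with a GGGAA core and can recruit complexes that repress or activate transcription. In the retina it is known as a factor of early progenitors, the dividing cells from which neurons and Müller glia are born. At P0 the retina holds late progenitors and newly born rods and bipolar cells.

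The libraries carried the markers of retinal cells. All 14 progenitor markers were found, with a summed level of 2302 to 2441 CPM in the controls and 2237 to 2255 CPM in the Ikzf1 libraries. The 15 rod markers summed to 142 to 165 CPM in the controls and 98.7 to 112 CPM in the Ikzf1 libraries, and 10 of them passed the edgeR test as lower and 1 as higher, where 30.0% of all genes tested were lower and 29.4% higher. The 10 measured Müller glia markers summed to 2626 to 2951 CPM in the controls and 1665 to 1804 CPM in the Ikzf1 libraries. Vim alone went from 1703 to 799 CPM, and Slc1a3 rose from 215 to 277 CPM. The 12 ganglion cell markers summed to 420.1 to 450.3 and 227 to 253 CPM. Most of that sum was Nefm (243 to 105 CPM) and Nefl (126 to 20.9 CPM). Of the 10 tested, 5 were higher, among them Sncg (2.84 to 23.8 CPM) and Pou4f1 (4.74 to 20.4 CPM). The part of these cell types in the fall of members was not tested. Of the tested markers of other classes, the numbers higher and lower were 0 and 5 of 9 for cones, 3 and 4 of 7 for bipolar cells, 0 and 7 of 12 for amacrine and horizontal cells, 5 and 5 of 10 for ganglion cells, 1 and 7 of 10 for Müller glia, and 3 and 8 of 14 for progenitors. For non-retinal classes they were 0 and 2 of 5 for astrocytes, 1 and 2 of 5 for pericytes and fibroblasts, 0 and 1 of 4 for the pigment epithelium and 0 and 0 of 1 for the lens, while none of the 6 erythroid markers were matched to transcripts. Matching was tried only for genes whose mean normalised count over the 8 libraries reached 5. A marker that was not matched may thus have had few reads or none. In whole libraries, fewer cells of a type and less RNA per cell cannot be told apart.

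Members fell to a median of 20.5% of their control level, from 2.60% for Tnf to 29.7% for Zfp455. The median member stood at 3.88 CPM in the controls and 0.691 CPM in the Ikzf1 libraries. All 104 together summed to 597, 614, 622 and 603 CPM in controls 1 to 4 and to 132, 130, 127 and 126 CPM in Ikzf1 libraries 1 to 4. No single library set these sums, since the libraries of each group lay close together. At most 5% of the control level was left for 3 members, at most 10% for 12 and at most 20% for 48. Reads remained in every Ikzf1 library for 95 of 104 members, and 9 had at least 1 Ikzf1 library without reads. Some of the 95 kept very few, such as Cd14 with 4, 2, 2 and 3 reads in Ikzf1 libraries 1 to 4. For 15 members the lowest control was under 2 times the highest Ikzf1 library.

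**Figure D1:**
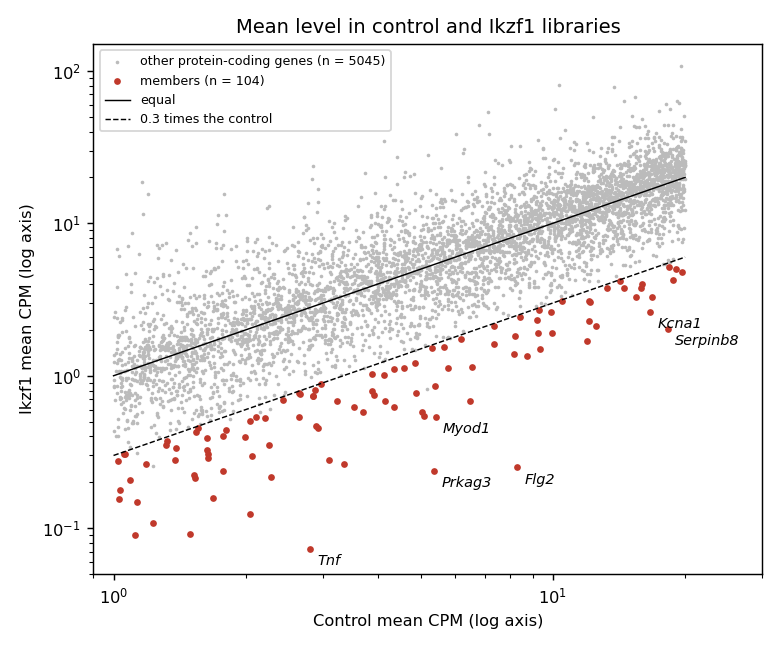
Mean CPM in the 4 control libraries (x axis, log scale) against mean CPM in the 4 Ikzf1 libraries (y axis, log scale) for protein-coding genes with a control mean from 1 to 20 CPM; red points are the 104 members, grey points the others, the solid line marks equal levels and the dashed line 0.3 times the control. Tnf lies lowest, at 0.0728 CPM in the Ikzf1 libraries, and Serpinb8 and Kcna1 fell from 18.3 and 16.6 CPM.

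The edgeR test ran on 103 members, since Ccl22 did not pass the filter on low counts. All 103 were called lower, which the choice of members brings about. Among all 15597 genes tested 30.0% were called lower and 29.4% higher, and among protein-coding genes in the same level range 28.3% and 29.8%. Every Ikzf1 library lay below every control for 22.7% of genes in the range and above every control for 29.4%. The fold limit was the rarer condition. It was met by 110 genes, of which 6 were left out because libraries of the groups overlapped, and these were Ccl4, Ifnb1, Tnfaip2, Gm3629, Gm49333 and Hist1h2br, named here after their values were seen. In the opposite direction, 100 genes of the range were at least as many times higher, with every Ikzf1 library above every control, and 192 genes met that condition when the mean held to 1 to 20 CPM was that of the Ikzf1 libraries. Above 20 CPM the same fall was found for 68 of 8352 protein-coding genes (0.814%).

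The limit of 0.3 cut through a continuous range. Just inside it were Kirrel2, a cell adhesion protein (29.4% of the control level left), Ptgfr, the receptor of prostaglandin F (29.5%), and the zinc finger gene Zfp455 (29.7%). Just outside were Fkbp10 (30.0%), H1f3 (30.2%) and Wdr63 (30.2%). Of 104 members, 101 were lower with an adjusted p under 0.05 in the authors' deposited table, where 21.0% of 19121 genes were, and they had a median log2 fold change of -1.87 (-4.16 to -0.45). The median in the edgeR fit was -2.34 (-5.12 to -1.81), and for 18 members the fall in the authors' deposited table was smaller by at least 1 on the log2 scale.

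By the function known for each symbol, the members comprised 19 inflammatory and immune genes, 17 other ligands, receptors and their modulators, 12 transcription factors, 12 channels and transporters, 22 enzymes and regulators, 14 structural and membrane proteins and 8 genes with no function assigned. The median share of the control level that was left was 18.8% for inflammatory and immune genes, 19.0% for ligands and receptors, 22.1% for transcription factors, 23.9% for channels and transporters, 19.1% for enzymes and regulators, 24.6% for structural and membrane proteins and 25.4% for the unassigned. The classes overlapped widely. No class was compared with another by a test.

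**Figure D2:**
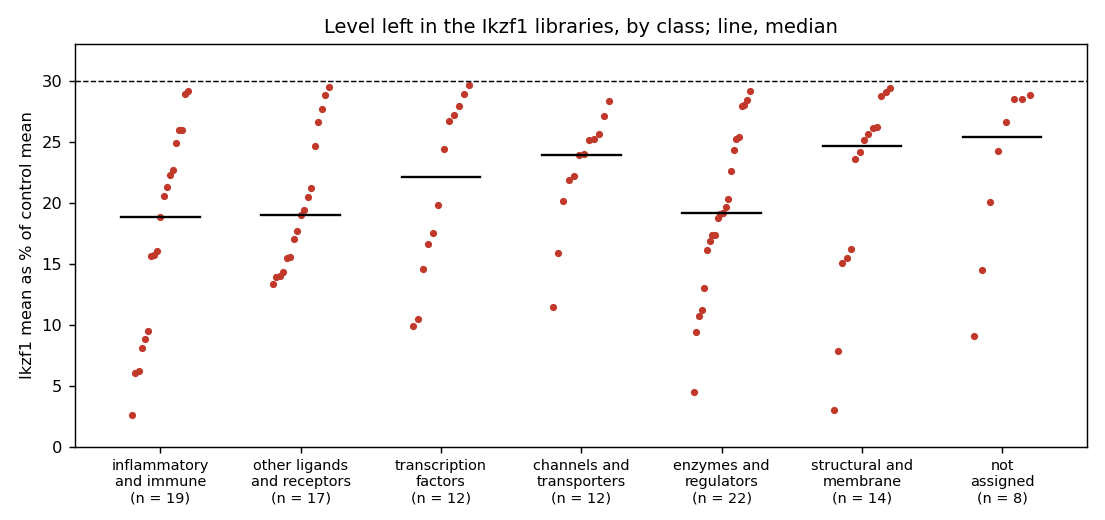
Share of the control mean left in the Ikzf1 libraries (y axis, percent) for each of the 104 members, by class; points are genes, the solid line is the class median and the dashed line the limit of the rule. Inflammatory genes reach down to 2.60% (Tnf), enzymes to 4.44% (Prkag3) and structural proteins to 3.02% (Flg2).

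Inflammatory and immune genes held 5 of the 8 members with the lowest ratio. Tnf (ENSMUSG00000024401, GRCm38 chr17:35199381-35202007, minus strand) encodes tumour necrosis factor, a cytokine that starts inflammatory signalling. It stood at 3.62, 3.50, 2.00 and 2.06 CPM in controls 1 to 4 and at 0, 0.0493, 0.0442 and 0.198 CPM in Ikzf1 libraries 1 to 4. The controls rested on 267 reads in all and the Ikzf1 libraries on 7. Its mean fell from 2.80 ± 0.885 to 0.0728 ± 0.0862 CPM (SD, n = 4 each), and the fitted log2 fold change was -5.12 (SE 0.46).

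Cd14 (ENSMUSG00000051439) encodes the co-receptor for bacterial lipopolysaccharide. Its controls gave 3.51, 1.68, 1.02 and 1.95 CPM and its Ikzf1 libraries 0.187, 0.0985, 0.0884 and 0.119 CPM. The controls spread over a range of more than 3-fold. Nlrp3 (ENSMUSG00000032691, chr11:59541568-59566956, plus strand), the sensor of an inflammasome, gave 1.62, 0.888, 0.745 and 1.22 CPM in the controls and 0.233, 0, 0.0884 and 0.0395 CPM in the Ikzf1 libraries. Only 8 reads in all were left for it in the Ikzf1 group, so its share of 8.09% is imprecise.

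Chemokines are small secreted proteins that attract leukocytes, and for Ccl22 and Cxcl2 the replicates were uneven. Ccl22 (ENSMUSG00000031779, chr8:94745590-94751699, plus strand) gave 0.298, 1.495, 1.33 and 2.84 CPM in the controls and 0.280, 0, 0.0884 and 0 CPM in the Ikzf1 libraries. Control 1 and Ikzf1 library 1 nearly touched. Cxcl2 (ENSMUSG00000058427, chr5:90903871-90905938, plus strand), which attracts neutrophils, gave 0.510, 1.44, 0.510 and 2.47 CPM in the controls and 0, 0.394, 0 and 0.0395 CPM in the Ikzf1 libraries. Nearly all of its remaining reads lay in Ikzf1 library 2.

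Cxcl10 (ENSMUSG00000034855, chr5:92346638-92348889, minus strand), an interferon-induced chemokine, had more reads and a smaller fall. It measured 10.8, 10.7, 8.13 and 7.52 CPM in the controls and 2.99, 1.38, 1.94 and 1.31 CPM in the Ikzf1 libraries, with 20.6% left. Lif (ENSMUSG00000034394, chr11:4257557-4272514, plus strand), a cytokine of the interleukin 6 family, measured 5.54, 5.37, 4.12 and 4.53 CPM in the controls and 0.700, 0.739, 0.972 and 0.656 CPM in the Ikzf1 libraries. Replicates of Lif were even in both groups, and the lowest control was more than 4 times the highest Ikzf1 library. Ptx3, a secreted pattern recognition protein, fell from 5.40 ± 0.834 to 0.863 ± 0.244 CPM, and Lsp1, an actin-binding protein of leukocytes, from 8.20 to 1.83 CPM. Anxa1, a phospholipid-binding protein induced by glucocorticoids, fell from 2.91 to 0.455 CPM.

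The remaining members of the class kept 9.45 to 29.1% of their control level, among them Inpp5d, a lipid phosphatase of blood cells, Lck, a kinase of T cells, and Ripk3, a kinase of necroptosis. Apol9a and Apol9b fell to 21.3 and 29.1%. Their sequences are near copies, so reads may have been divided between them in the authors' estimates, and their values are uncertain to that extent.

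An added list of 40 NF-κB target and inflammatory genes, written after the members' names were known, set these members beside genes the rule did not choose. Apart from members, 24 of its genes could be tested, and 14 were lower, 0 higher, with a median log2 fold change of -0.68. Over all genes tested the median was 0.00, with 30.0% lower and 29.4% higher. Nfkb2, a subunit of NF-κB whose own gene is induced by the pathway, went from 56.5 ± 1.48 to 12.2 ± 0.935 CPM (log2 fold change -2.26, edgeR adjusted p 2.74e-21). Relb changed by -0.79 (edgeR adjusted p 9.33e-12) and Nfkbia, the inhibitor that the pathway induces, by -0.43 (edgeR adjusted p 1.27e-05). Ccl2, a monocyte chemokine below the level range, went from 0.844 to 0.0683 CPM (edgeR adjusted p 2.79e-06). Other genes of the list did not pass the test, with edgeR adjusted p of 0.547 for Ccl3, 0.236 for Ccl5, 0.108 for Il1a and 0.93 for Nfkbib.

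Microglia and macrophages are the cells of the retina best known for Tnf, Cd14, Nlrp3 and the chemokines. Of 12 markers of these cells, 10 were measured and P2ry12 and Aif1 were not matched to transcripts. The 10 summed to 11.5 to 13.5 CPM in the controls and 8.46 to 11.4 CPM in the Ikzf1 libraries. Of 5 that could be tested, 2 were lower and 0 higher, where all genes tested gave 30.0% lower and 29.4% higher. The 2 lower were Tmem119 (0.603 to 0.305 CPM, edgeR adjusted p 0.0328) and Cd68 (7.36 to 4.999 CPM, edgeR adjusted p 0.000232). Cd68 was the largest part of the sums. Csf1r, C1qb and Ptprc did not pass (edgeR adjusted p 0.77, 0.923 and 0.669), and Ptprc, the common antigen of leukocytes, was at 1.501 ± 0.449 CPM in the controls and 1.72 ± 0.415 CPM in the Ikzf1 libraries. Cx3cr1, below the filter, was at 0.576 and 0.219 CPM. The part of microglia in the fall of the inflammatory members was not tested.

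**Figure D3:**
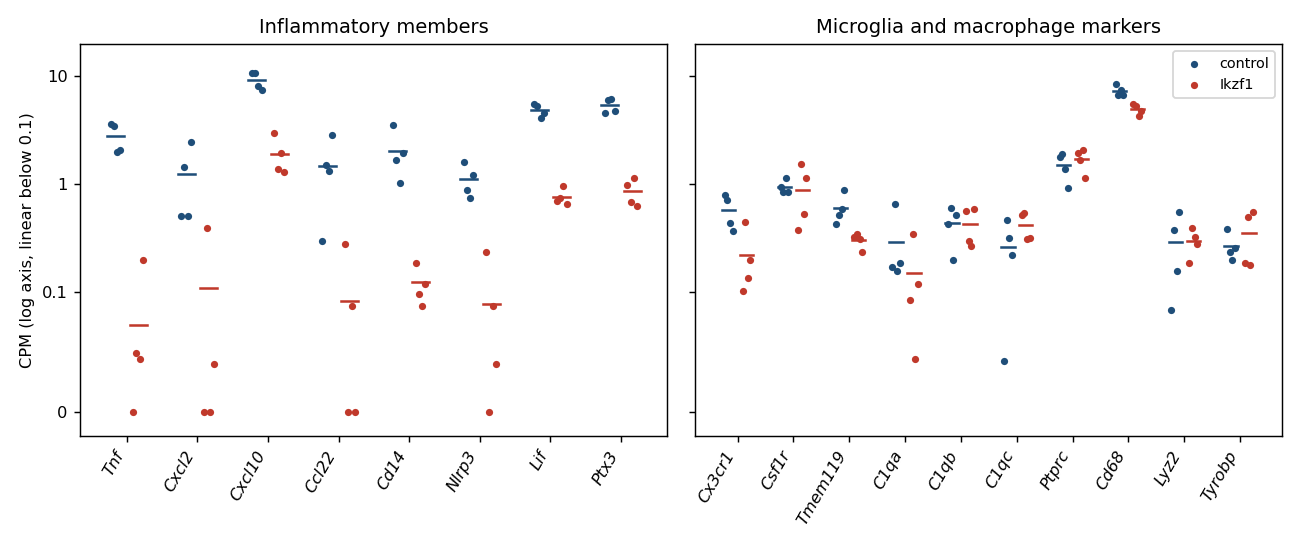
CPM in each library (y axis, log scale, linear below 0.1) of 8 inflammatory members (left) and of the 10 measured markers of microglia and macrophages (right); blue points are controls, red points Ikzf1 libraries and lines are means of 4. The groups are apart on the left because the rule chose members that way, and overlap for 8 of the 10 markers on the right, which were not chosen by it.

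Because several of these genes fell together, the bases before their start are shown, as RefSeq gives them for GRCm38.p6. Each sequence is the 150 bases before the RefSeq start, on the strand of the gene, for 4 inflammatory members and for Egr4, a member described further on. Capitals mark the letters GGGAA, the core of the Ikaros site, or TTCCC, the same letters on the other strand.
Tnf (chr17:35202008-35202157, minus strand): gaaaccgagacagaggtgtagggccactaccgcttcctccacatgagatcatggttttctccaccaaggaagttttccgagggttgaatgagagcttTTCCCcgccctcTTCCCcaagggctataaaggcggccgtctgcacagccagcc
Cxcl2 (chr5:90903749-90903898, plus strand): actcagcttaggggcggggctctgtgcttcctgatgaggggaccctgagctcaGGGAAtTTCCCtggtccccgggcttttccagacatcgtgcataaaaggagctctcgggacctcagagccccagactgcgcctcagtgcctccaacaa
Cxcl10 (chr5:92348890-92349039, minus strand): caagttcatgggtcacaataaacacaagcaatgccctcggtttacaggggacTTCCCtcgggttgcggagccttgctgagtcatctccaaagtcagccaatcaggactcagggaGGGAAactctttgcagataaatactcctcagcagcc
Lif (chr11:4257418-4257567, plus strand): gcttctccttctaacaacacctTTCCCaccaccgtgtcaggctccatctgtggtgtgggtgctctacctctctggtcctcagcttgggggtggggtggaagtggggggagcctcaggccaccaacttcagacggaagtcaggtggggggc
Egr4 (chr6:85513590-85513739, minus strand): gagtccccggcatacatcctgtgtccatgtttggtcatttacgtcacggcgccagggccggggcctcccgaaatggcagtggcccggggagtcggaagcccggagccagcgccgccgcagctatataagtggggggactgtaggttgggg

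The letters occur at 2 places each before Tnf, Cxcl2 and Cxcl10, at 1 place before Lif and at none before Egr4. They are common, since 42.3% of 27025 genes with RefSeq windows hold GGGAA on either strand within 150 bases before a start. Of the 3972 protein-coding genes in the level range with such windows, 46.0% do. The 2 matches of Cxcl2 lie 1 base apart, 97 to 93 and 91 to 87 bases before the start. A match to the NF-κB site, searched by its name on both strands, was found before Cxcl2 and Cxcl10, and it can overlap GGGAA. Over the same stretch 2.75% of all genes and 3.6% of those in the level range had one. The Cxcl10 sequence also holds TGACTCA, the AP-1 site (3.32% of all genes), the Egr4 sequence TGACGT, part of the site of CREB (5.87%), and the Tnf sequence TATAAA (8.89%), each on either strand. In the level range the shares were 3.07, 6.87 and 5.49%. For Cxcl2 and Lif the gene start in the authors' deposited table lies within the last bases shown. RefSeq windows were matched for 78 of the 104 members (75%), which is under the 80% needed, so shares of motifs over the members are void and not given. A match describes letters only, and binding there was not measured with the data used here.

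Ligands and receptors that act in neurons and vessels formed the next class. Calcb (chr7:114718643-114723365, plus strand), which encodes calcitonin gene-related peptide beta, had controls of 12.2, 13.3, 12.1 and 10.4 CPM and Ikzf1 libraries of 2.10, 1.43, 1.72 and 1.46 CPM. Per length it had the highest control level of all members, 27.5 TPM, a unit that divides reads by transcript length. Gfra2, the co-receptor of neurturin, gave 9.33, 7.69, 9.39 and 8.54 CPM in the controls and 1.26, 1.499, 1.497 and 1.16 CPM in the Ikzf1 libraries. Both genes had replicates close together, with 14.01 and 15.47% of the control level left.

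Adra1d, the alpha 1D adrenoceptor, went from 12.1 ± 1.55 to 2.30 CPM, and Gria3, a subunit of AMPA glutamate receptors, from 15.5 to 3.28 CPM. Ptgfr had controls of 10.6, 10.04, 10.7 and 10.7 CPM and Ikzf1 libraries of 3.92, 2.37, 3.32 and 2.78 CPM. Other members of this class were the peptide Adcyap1, the receptors Bdkrb2, Crhr1, Cckbr and Hcrtr1, and the secreted factors Bmp4, Grem1, Wnt10b and Ccn4. They kept 13.9 to 28.8% of the control level.

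Eng, a co-receptor for transforming growth factor beta known from endothelial cells, fell from 1.77 to 0.236 CPM. Of 10 endothelial markers 8 were measured, and Cdh5 and Emcn were not matched to transcripts. The 8 summed to 551 to 620 CPM in the controls and 254 to 297 CPM in the Ikzf1 libraries. Nearly all of this was Kdr, at 468 and 240 CPM, and Flt1, at 109 and 21.2 CPM. Among 7 tested, 4 were lower (Kdr, Flt1, Tek and Vwf) and 0 higher, where all genes tested gave 30.0% lower and 29.4% higher. Pecam1 was at 3.27 and 3.23 CPM (edgeR adjusted p 0.76), and apart from Kdr and Flt1 the other measured markers had lower means in both groups. The sums thus describe Kdr and Flt1 and say little of the other markers. The part of endothelial cells in the fall of Eng was not tested. Eng also overlaps Fpgs on the other strand, and strand use in the authors' counting was not stated.

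Transcription factors among the members came from unrelated lineages. Myod1 (chr7:46376474-46379099, plus strand), the master regulator of skeletal muscle, measured 5.66, 5.42, 5.34 and 5.24 CPM in the controls and 0.514, 0.493, 0.663 and 0.475 CPM in the Ikzf1 libraries. Its replicates lay close together, with a control SD of 0.183 CPM, and 9.90% was left. Of 8 other skeletal muscle genes tested, 2 were higher and 1 was lower, where all genes tested gave 29.4% higher and 30.0% lower. The related factors Myf5, Myf6 and Myog were not matched to transcripts, which was tried only for genes with a mean normalised count of at least 5. Ttn, the giant sarcomere protein, rose from 1.08 to 7.14 CPM (edgeR adjusted p 8.21e-11), and Myh3 fell from 11.6 to 7.95 CPM (edgeR adjusted p 2.01e-05). Tnnt3, a troponin below the filter on low counts, was at 0.563 CPM in the controls and 0.0123 CPM in the Ikzf1 libraries.

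Obox6 (chr7:15833241-15839678, minus strand), a homeobox gene known from oocytes, measured 4.54, 6.78, 7.38 and 7.23 CPM in the controls and 0.887, 0.542, 0.619 and 0.673 CPM in the Ikzf1 libraries. Its nearest neighbour at higher coordinates is Crx, the homeobox gene of photoreceptors. Crx, at 285 ± 18.6 CPM in the controls and 143 ± 11.8 CPM in the Ikzf1 libraries, changed by -1.05 on the log2 scale (edgeR adjusted p 3.51e-13). Of the 4 related homeobox genes that could be tested, Crx, Otx2 and Crxos were lower and Otx1 was higher.

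Egr4, an immediate early zinc finger gene, measured 1.49, 1.59, 1.65 and 1.84 CPM in the controls and 0.187, 0.296, 0.309 and 0.356 CPM in the Ikzf1 libraries. Immediate early genes are those switched on within minutes of a stimulus. The 3 other Egr genes had control means above 20 CPM, outside the level range, and each was lower. Egr3 went from 51.5 to 4.61 CPM (log2 fold change -3.54), Egr2 from 36.9 to 6.37 CPM (-2.59) and Egr1 from 589 to 447 CPM (-0.45), with edgeR adjusted p of 2.14e-23, 3.94e-19 and 2.09e-09. Of 25 immediate early genes other than Egr4, 20 were lower and 2 higher (Nr4a2 and Klf4), with a median of -0.68. Of 13 genes known as feedback regulators and targets of ERK signalling, none of them a member, 11 were lower and 1 was higher. All genes tested gave 30.0% lower and 29.4% higher.

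Among 19 clock genes that were no members 15 were lower and 3 higher (Cry1, Hlf and Nfil3), with a median of -0.45, against the same shares over all genes tested. Hlx, Gata2 and Tbx18 kept 14.6, 16.6 and 19.8%. Zinc finger members were Zkscan4 (4.60 to 1.12 CPM), Zfp93 (7.33 to 2.12 CPM), Zfp72 (2.88 to 0.805 CPM) and Zfp455 (2.97 to 0.880 CPM). Such genes lie among near copies, and their counts are uncertain to that extent. For 20 Notch pathway genes (receptors, ligands, modifiers and targets), which hold no member, 6 were higher and 8 lower.

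**Figure D4:**
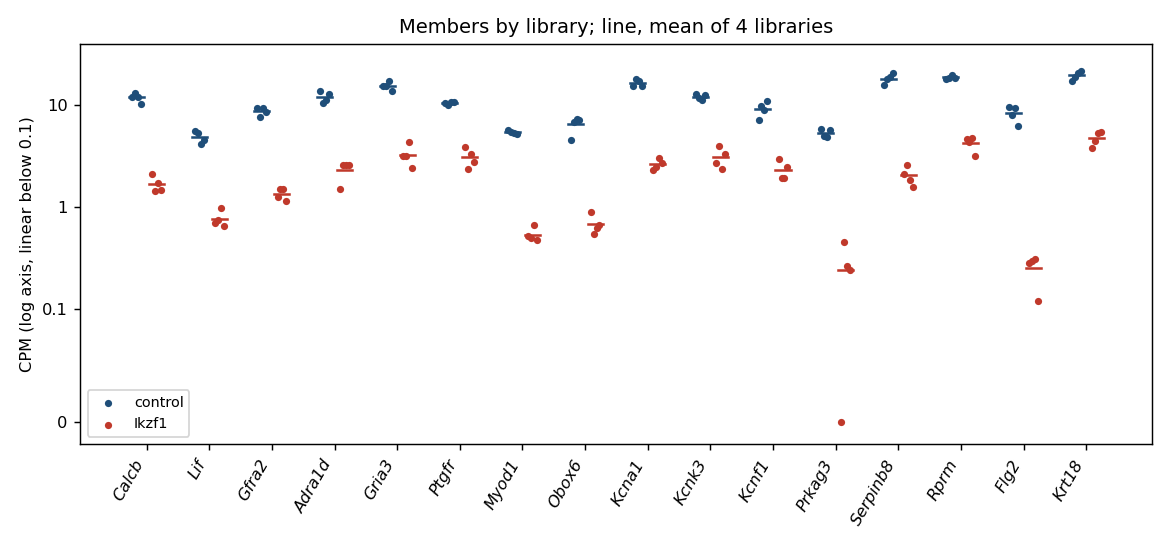
CPM in each library (y axis, log scale, linear below 0.1) of 16 members: ligands and receptors, transcription factors, channels, enzymes and structural proteins from left to right; blue points are controls, red points Ikzf1 libraries and lines are means of 4. Prkag3 has no reads in Ikzf1 library 1, and Myod1 lies between 0.475 and 0.663 CPM in the Ikzf1 libraries.

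Potassium channels made up 6 of the 12 channels and transporters. Kcna1 (chr6:126640397-126646384, minus strand), a voltage-gated channel of axons, measured 15.4, 18.2, 17.5 and 15.4 CPM in the controls and 2.33, 2.46, 3.05 and 2.69 CPM in the Ikzf1 libraries, with 15.8% left. Kcnk3, a background channel, went from 12.1 to 3.10 CPM, Kcnf1, a modulatory subunit, from 9.20 to 2.32 CPM, and Kcnh8 from 7.34 to 1.61 CPM. The inward rectifiers Kcnj2 and Kcnj9 went from 1.63 to 0.390 CPM and from 1.32 to 0.375 CPM. Close relatives did not share one direction. Of 7 other Kcnj genes tested 3 were higher and 2 lower, of 7 other Kcnh genes 4 and 1, of 9 other Kcnk genes 3 and 3, and of 5 other Kcna genes 2 and 2. Over all genes tested, 29.4% were higher and 30.0% lower.

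Transporters included Abcc6, which fell to 11.5% of its control level, Slco1c1, a carrier of thyroid hormone, with 20.2%, and Atp10a, a lipid flippase, which went from 12.1 to 3.05 CPM. Slco1c1 and its paralog Slco1b2 lie 59.3 kb apart, with no other measured protein-coding gene between them. Slco1b2 had no reads in Ikzf1 library 1.

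Among enzymes and regulators, Prkag3 (ENSMUSG00000006542, chr1:74738922-74749221, minus strand) fell the furthest. It encodes the gamma 3 subunit of AMP-activated protein kinase (AMPK), the cell's energy sensor, and is known from skeletal muscle. Its controls gave 5.85, 5.001, 4.89 and 5.74 CPM and its Ikzf1 libraries 0, 0.452, 0.265 and 0.238 CPM. The other AMPK subunits went mostly the other way, with 5 of 6 higher and Prkab2 lower (log2 fold change -0.18, edgeR adjusted p 0.00557). The other gamma subunits, Prkag1 and Prkag2, rose by 0.68 and 0.43 on the log2 scale (edgeR adjusted p 1.54e-12 and 6.78e-06). In the authors' deposited table the fall of Prkag3 was smaller, with a log2 fold change of -1.66 against -4.54 in the edgeR fit.

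Serpinb8 (chr1:107590006-107610484, plus strand), an inhibitor of serine proteases inside cells, measured 15.7, 17.95, 18.9 and 20.6 CPM in the controls and 2.11, 2.62, 1.86 and 1.59 CPM in the Ikzf1 libraries. With 1792 control reads it was among the best counted members, and 11.2% was left. Rprm, a gene induced by p53 that stops the cell cycle before mitosis, measured 18.2, 18.7, 19.9 and 18.4 CPM in the controls and 4.67, 4.39, 4.77 and 3.20 CPM in the Ikzf1 libraries. Trim16, a ubiquitin ligase, went from 16.8 to 3.30 CPM, its relative Trim47 from 9.31 to 2.71 CPM, Mtmr11, of the myotubularin family, from 15.9 to 4.02 CPM and the cytochrome Cyp4f16 from 18.4 to 5.14 CPM. Arhgap22 and Arhgap45 kept 16.1 and 25.4%. Of 29 other Arhgap genes 16 were higher and 6 lower, where all genes tested gave 29.4% higher and 30.0% lower.

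The 14 structural and membrane members included genes known from skin. Flg2 (ENSMUSG00000049133, chr3:93197278-93221391, plus strand), filaggrin-2 of the cornified skin, measured 9.58, 8.08, 9.30 and 6.23 CPM in the controls and 0.280, 0.296, 0.309 and 0.119 CPM in the Ikzf1 libraries. The fall, to 3.02%, rested on 804 control reads and 22 reads in the Ikzf1 group. S100a7a (chr3:90654017-90658669, plus strand), a calcium-binding protein of skin, measured 2.85, 3.14, 3.93 and 3.48 CPM in the controls and 0.749, 0.0531, 0.143 and 0.103 CPM in the Ikzf1 libraries. Ikzf1 library 1 thus held most of what remained. Of 5 other keratinocyte genes tested, Krt1, Lor and Sprr1a were higher and 0 lower, and Krt5, Krt14 and Trp63, which define basal keratinocytes, were not matched to transcripts. Genes with a mean normalised count under 5 were not tried. Sprr1a rose from 3.74 to 21.3 CPM (edgeR adjusted p 1.39e-13). Of 8 other S100a genes tested, 7 were lower, where 30.0% of all genes tested were.

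Krt18 (chr15:102028180-102032027, plus strand), a keratin of simple epithelia that pairs with Krt8, had the highest control CPM of the members. It measured 17.3, 19.2, 20.7 and 21.7 CPM in the controls and 3.83, 4.43, 5.35 and 5.42 CPM in the Ikzf1 libraries. Krt8 is its nearest neighbour at lower coordinates and was lower too, by a log2 change of -1.71 (edgeR adjusted p 7.22e-16). Col16a1, a collagen, went from 19.1 to 5.01 CPM, Anxa3 from 15.9 to 3.74 CPM and Kirrel2 from 14.2 to 4.19 CPM.

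Genes named like a member, meaning that the letters before the final digits are shared, were counted over all members. Of 909 such relatives tested, 325 (35.8%) were lower and 271 (29.8%) higher, where all genes tested gave 30.0 and 29.4%. Without the large Zfp family, 171 of 539 (31.7%) were lower and 182 higher. Of the relatives of the interferon-induced member Ifi207, 5 of 7 were lower. Of the Ccl chemokines 2 of 9 were lower (Ccl2 and Ccl4) and of the Cxcl chemokines 2 of 3, with 0 higher in either.

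Genes next to members were lower more often than higher. For each member the nearest tested protein-coding gene on either side that was no member was taken, 200 genes in all. Of these, 83 (41.5%) were lower and 47 (23.5%) higher, with a median log2 fold change of -0.12, where all protein-coding genes tested gave 30.9% lower and 30.5% higher. Within 100 kb of the member, 65 of 145 (44.8%) were lower and 27 (18.6%) higher. The difference from the background was not tested, and reads of a gene running into its neighbour were not separated.

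**Figure D5:**
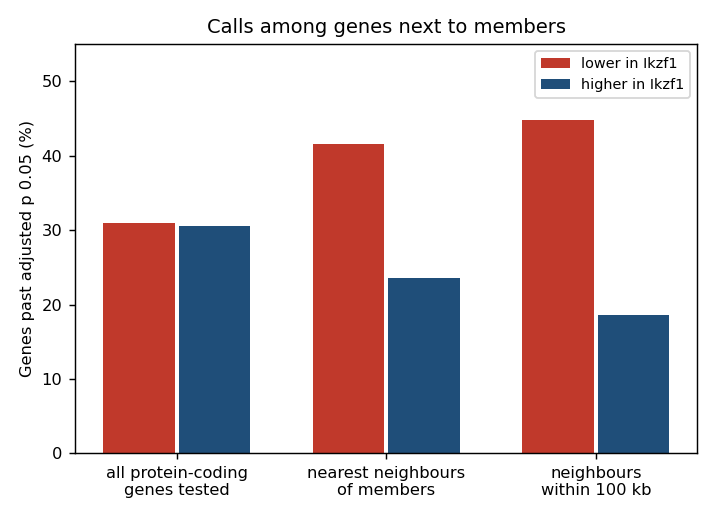
Share of genes past an edgeR adjusted p of 0.05 (y axis, percent) that were lower (red) or higher (blue) in the Ikzf1 libraries, for all protein-coding genes tested, for the 200 nearest neighbours of members and for the 145 of these within 100 kb. Lower calls rise from 30.9 to 41.5 and 44.8% across the 3 red bars.

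Named examples show both sides. The neighbours of Cxcl10, Sdad1 and Nup54, changed by -0.51 and -0.38 on the log2 scale (edgeR adjusted p 1.13e-09 and 1.83e-07). Kcnc1, 17.4 kb from Myod1 and a potassium channel gene, changed by -0.88 (edgeR adjusted p 2.62e-12). Next to Prkag3, Cyp27a1 was lower (-1.93, edgeR adjusted p 0.000178) and Wnt6 higher (1.88, edgeR adjusted p 1.56e-05). Both neighbours of Rprm, Arl6ip6 and Galnt13, were higher (0.23 and 0.30), and those of Lif, Castor1 and Hormad2, did not pass the test.

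Members lay on 20 chromosomes, with most on chromosome 7 (12 of 462 genes in the level range) and chromosome 1 (11 of 272). Pairs of members within 100 kb of each other numbered 5. Besides Slco1c1 and Slco1b2 these were Trim16 and Fbxw10, which overlap on the same strand, Rhod and Syt12 (6.48 kb apart), Col16a1 and Hcrtr1 (30.9 kb) and Gm28557 and Zfp455 (85.9 kb). Where 2 members overlap, their counts may not be separate. In all, 8 members overlapped another gene with reads, of which Ptx3, Eng, Tnfrsf9 and Glt8d2 did so on the other strand.

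Transcript make-up and length were not used by the rule. Spread in the controls entered it in part, since every Ikzf1 library had to lie below every control. In the controls the leading transcript held a median of 90.3% of a member's reads and 84.4% over genes in the range. The leading transcript had a median length of 2710.5 bases in members and 2718 in the range, and the gene a median span of 17.9 and 19.6 kb. Controls varied by a median of 13.1% of their mean in members and 11.6% in the range. Members also stood lower in the controls, at a median of 3.88 CPM against 6.10 CPM, so these spreads are not like for like. Base composition of promoters was not compared, since too few members had a RefSeq window.

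For a few members the size of the fall depended on how transcript length was treated. With an offset for the mean transcript length, 100 members were still called lower, and Pdk4, Vill and Bmp4 were not. Pdk4, a kinase that restrains pyruvate use, changed by -2.97 without the offset and -1.13 with it (edgeR adjusted p 0.0562). Its mean transcript length, as estimated, went from 3322.7 to 892.5 bases, on 13 reads in all in the Ikzf1 libraries. Vill changed by -1.83 and -0.94 (edgeR adjusted p 0.155). Bmp4 changed by -2.87 and -2.60 (edgeR adjusted p 0.0915). For Inpp5d the transcript ENSMUST00000167032.1 was at 2.60, 1.16, 0.787 and 2.54 CPM in the controls and at 0 in all 4 Ikzf1 libraries, while the gene as a whole kept 9.45%. The offset made the fall of S100a7a larger (-3.72 to -4.70) and that of Abcc6 too (-3.18 to -4.003). In all, 6 members had a fall smaller by over 1.5 times and 4 a fall larger by that factor. Reads summed over the Ikzf1 libraries were 40 for Vill, 19 for Bmp4, 19 for Inpp5d, 23 for S100a7a and 51 for Abcc6. With so few reads, the transcript shares and mean lengths of these genes in that group are imprecise, and a change of transcripts was not tested.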

How the data were processed

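The authors deposited, per the file headers, estimated counts and TPM for each transcript and library, made with salmon per the submitters' processing notes, whose version, index and strand setting were not given in the sources used here. The authors' deposited table gave mean normalised counts (a signal over all 8 libraries), log2 fold changes with a Wald score and p-values, made with DESeq2 per the submitters' processing notes, and gene positions on GRCm38. The transcript files named no genes. Transcripts were joined to genes where the counts of a run of neighbouring transcripts gave the mean in the authors' table within a relative tolerance of 5e-09. Among the 16815 genes whose mean reached 5, 16640 (98.96%) were joined, holding 99.90 to 99.92% of the reads. Genes with a lower mean were not tried. A chance match was possible for 70 (0.416%). In simulated data 100% of joins were right.

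Sums were rounded and tested with edgeR 4.0.16 (R 4.3.3, quasi-likelihood, filterByExpr, TMM, Benjamini-Hochberg over 15597 genes, two-sided, threshold 0.05) with no covariate. Tested on counts simulated for this comparison (15477 genes), 200 of 200 changed genes were recovered and 6.1% of 213 calls were false. Lower and higher calls refer to this test, in which 30.0% of all genes tested were lower and 29.4% higher. Library totals of 21.4 to 30.5 M reads limit the precision of genes with few reads.

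The members, the gene lists and the tests were chosen with earlier results of these data known. Named were the 8 members of lowest ratio, the 8 of highest control CPM, those in a list or sharing a family stem, up to 5 per class and 3 on each side of the ratio limit. Other genes were named after their values were seen. Results of 3 members are not reported here. The replicate numbers did not pair the libraries.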

Additional observations from a re-analysis of the deposited data

Results flagged for a closer look

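In 98 groups of 4 libraries examined for the named members, 7 had 1 library far from the other 3 by Dixon's test of the gap to the nearest library over the group's range. Chance gives about 1 group in 20, and 5.19% of all such groups of genes in the level range showed it. All 7 were Ikzf1 groups. Adra1d was low in Ikzf1 library 1 (1.494 CPM against 2.562 to 2.571). Flg2 was low in Ikzf1 library 4 (0.1186 CPM against 0.2801 to 0.3093, or 3 reads against 6 to 7). Cxcl2 was high in library 2 (0.3942 CPM against 0 to 0.03954, or 8 reads against 0 to 1). S100a7a was high in library 1 (0.7494 CPM against 0.05311 to 0.1429, or 16 reads against 1 to 3). Further high values were those of Arhgap45 in library 3 (1.193 CPM against 1.069 to 1.084), Cyp4f16 in library 4 (6.86 CPM against 4.461 to 4.655) and Zkscan4 in library 4 (1.652 CPM against 0.9098 to 1.008).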

How the results depend on the processing

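Counting the reads of Ikzf1 in the library totals raised the number of members from 104 to 178, with all 104 among them, because that lowers every CPM of the Ikzf1 libraries. Other scalings, gene classes, averages and no demand on separate libraries gave 108 to 119 members, and leaving out 1 library at a time gave 109 to 119, with 95 to 101 of the 104 shared. The 51 tested genes chosen by the naming rule, most of them members, kept direction and call in all 14 alternative settings run for them. Pdk4, Vill and Bmp4 were not among these, and with the length offset they were not called. Neighbours called lower numbered 76 to 86 over the alternatives. The replicate numbers did not pair the libraries (same-number correlations of deviations -0.045 to 0.005). With the replicate block, 4411 genes were called higher and 4524 lower, 103 members lower and 80 neighbours lower. For members, the calls in all these settings are a description with no test, since the rule chose them by the same libraries. The alternative of a 150-base window for member promoters was not run as a share, since the check over members was void. Low reads limit the ratios of the lowest members.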
